A study of Mus musculus with 50 samples.

Results

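The comparison set untreated RAW264.7 cells that lack both SGK1 and SGK3 against untreated RAW264.7 cells that lack SGK1 alone. RAW264.7 is a mouse macrophage line, and its genes had been disrupted by CRISPR editing with guide RNAs. The 6 libraries, out of 50 in the series, were picked by their genotype, treatment and batch labels: G, H and I of the double knockout, and D, E and F of the SGK1 knockout, all from the batch whose libraries carry letters (b2). Both groups are labelled as knockouts of SGK1, so by label they differ in SGK3. The labels name 1 line for each genotype, and do not say whether a line was a clone or whether the double knockout was made from the SGK1 knockout line. The SGK3 edit and any other difference between the lines therefore cannot be told apart, and since the libraries are not said to be separate cultures, p-values here reflect spread among libraries that may be technical.

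Other libraries serve as references. Untreated control cells of the same batch, which carried the empty vector in place of a targeting guide, gave libraries A, B and C. The same genotypes were also sampled after exposure to DMXAA, which activates mouse STING, at 10 µg/mL for 2 h, with 3 double knockout, 4 SGK1 knockout and 4 control libraries. A further batch, numbered b1, holds 3 untreated SGK3 knockout and 3 untreated control libraries, in which SGK3 alone was disrupted.

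SGK1 and SGK3 are serine/threonine kinases related to AKT and activated downstream of PI3-kinase, and NDRG1 is a protein that both can phosphorylate. SGK3 carries a PX domain that binds phosphoinositides on endosomes. STING, the sensor that DMXAA engages, acts through the kinase TBK1 and the transcription factor IRF3 to induce type I interferon. Macrophages at rest also make traces of type I interferon, and that signal keeps antiviral genes expressed at a low level.

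Depth ran from 73296979 to 95668665 counts in the 6 libraries, and between 15045 genes (library F) and 17307 genes (library G) had a count. Replicates of a genotype had Spearman correlations of 0.967 to 0.984 across genes, which are not independent replicates, and no pair was identical. Pairs across the genotypes reached 0.959 to 0.979, and SGK1 knockout library D was as close to G, H and I (0.975 to 0.979) as to its own replicates E (0.976) and F (0.967) or closer. All 10 macrophage markers were present, at a summed level of 8780 to 9960 CPM (counts scaled for sequencing depth) in the double knockout and 8550 to 10200 CPM in the SGK1 knockout. By the edgeR test given below, 4 of the 10 were lower in the double knockout (Adgre1, Itgam, Mpeg1 and Csf1r) and 0 higher. Of all tested genes 2.26% were lower and 1.41% higher. With a trend in transcript length removed 2 of the 10 were lower, Adgre1 among them. Of the markers of T cells, neutrophils, fibroblasts and epithelium, most defining genes (Cd3e, Ly6g, Col1a1 and Epcam among them) were at 0 in all 6 libraries. The largest summed level of any of those lists was 1.58 CPM, for T cells in a double knockout library, and dendritic cell markers summed to 0.731 to 2.44 CPM. In bulk RNA, fewer cells expressing a gene and less RNA per cell cannot be told apart.

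In resting cells, the double knockout had less RNA of the interferon program than the SGK1 knockout, and a small set of genes stood near on and off. Of 67 tested members of 2 interferon lists, 27 fell and 0 rose. Trp53i11, Btg3, Crlf2, Itgal and Abcd2 were among the falls called in every fit that was run, and Rgs1 and Dusp4 among the rises. Slc9b2 and Arhgap31 were the largest rises among protein-coding genes at 1 CPM or more called with and without a correction for transcript length. By edgeR's quasi-likelihood test, 609 of 16622 genes differed at an adjusted p under 0.05 (3.66% of those tested). Of these, 234 were higher in the double knockout (1.41%) and 375 lower (2.26%), and 46 and 91 of them changed at least 2-fold. Without a single library the count was 154 (without G), 145 (without I), 167 (without E), 158 (without F) or 2129 (without SGK1 knockout library D), while leaving out H gave 547. With no libraries but these 6 in the fit, 69 genes passed.

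Library composition also differed with transcript length, and the sign of the fitted differences moved with it. The slope of log2 CPM per doubling of transcript length, relative to the mean of the 20 b2 libraries, was -0.096 in double knockout library G, 0.046 in H and -0.078 in I. It was -0.0011 in SGK1 knockout library D, 0.142 in E and 0.233 in F. The groups overlapped, since H lay above D, but E and F were the steepest of the 6 and favoured long transcripts. Control libraries A, B and C had slopes of -0.063, -0.121 and 0.014. Mean slopes were -0.0424 ± 0.0774 in the double knockout and 0.125 ± 0.118 in the SGK1 knockout (SD, n = 3 each), a difference of -0.167 with an exact two-sided permutation p of 0.2, where 0.1 is the smallest p that 3 against 3 allows.

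Across 5 equal groups of the tested genes by transcript length, the median log2 difference between double and SGK1 knockout fell step by step. It was 0.38 for the shortest group (up to 1065 bases), 0.21, 0.06 and -0.06 for the next ones, and -0.25 for the longest (from 4128 bases). The number of genes called lower increased from group to group, at 2, 20, 47, 102 and 204 from the shortest to the longest. The number called higher was 20, 84, 68, 51 and 11, with its peak in the next to shortest group. The 375 genes called lower had a median transcript length of 4308 bases and the 234 called higher 2083 bases, against 2322 over all tested genes.

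**Figure D1:**
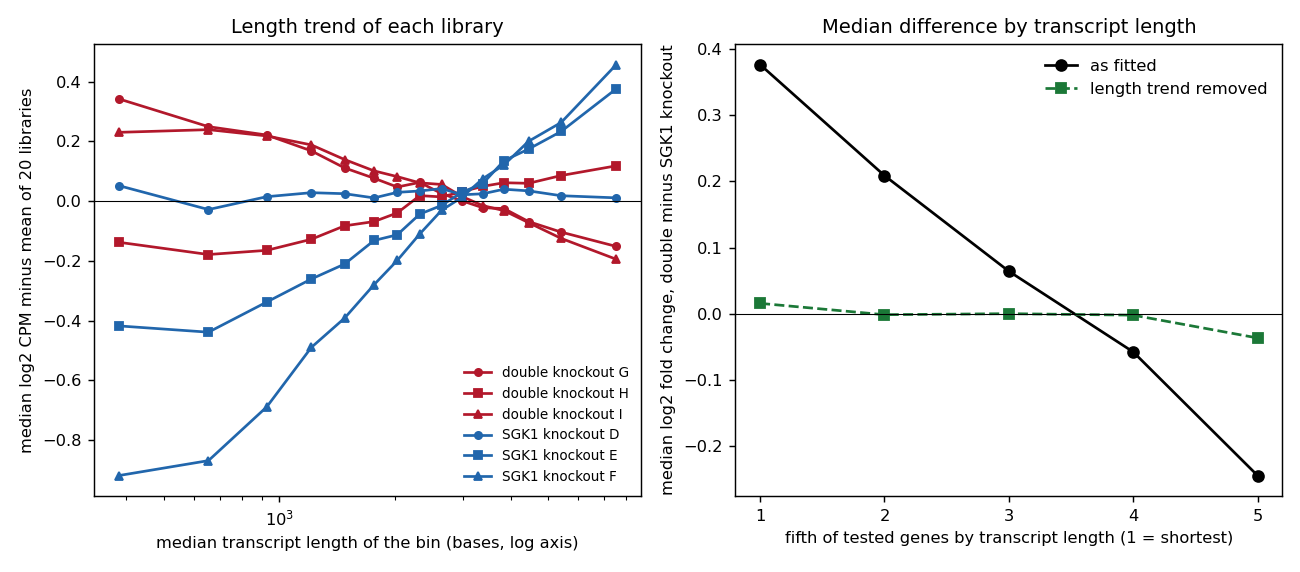
Left, median deviation of log2 CPM from the mean of the 20 b2 libraries (y) in 15 bins of tested genes against the bin's median transcript length in bases (x, log axis), with 1 line per library. Right, median log2 fold change of double minus SGK1 knockout (y) in each of 5 equal groups of genes by length (x), as fitted and with the length trend removed. SGK1 knockout libraries E and F climb with length, and the fitted difference falls from 0.38 to -0.25 across the groups.

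A second fit removed a smooth trend with transcript length from every library. It left medians between -0.037 and 0.016 in the 5 groups and called 571 genes, of which 309 were higher (1.86% of those tested) and 262 lower (1.58%). The share of calls that were higher thus went from 38.4% to 54.1%. Both fits called 365 genes in the same direction, 153 higher and 212 lower. The 163 genes that were lower in the first fit alone had a median length of 4723 bases, and the 81 that were higher in it alone 1671 bases.

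The 3 falls and 3 rises of smallest p called in the first fit alone are given with both values. Slc37a2, a sugar-phosphate transporter of the endoplasmic reticulum with a transcript of 5540 bases, stood at 65.0, 55.3 and 60.9 CPM in the double knockout and 79.6, 89.5 and 80.2 CPM in the SGK1 knockout. The groups did not overlap, and its difference went from -0.46 ± 0.085 (log2 ± SE, adjusted p = 0.00472) to -0.25 ± 0.090 with the trend removed (adjusted p = 0.14). Mgat5, a glycosyltransferase that branches N-glycans, went from -0.65 to -0.34 (adjusted p from 0.00662 to 0.0583), and Zc3h7b, a zinc finger protein, from -0.47 to -0.26 (0.00702 to 0.0525). Among rises of shorter transcripts, Lpxn, the focal adhesion adaptor leupaxin, went from 0.57 to 0.38 (0.00194 to 0.058). Nae1, a subunit of the NEDD8-activating enzyme, went from 0.58 to 0.43 (0.00384 to 0.0576), and Fcrl1, a receptor of the Fc receptor-like family, from 0.50 to 0.36 (0.00937 to 0.0716). With length and GC trends removed together, Lpxn (adjusted p = 0.0443), Nae1 (0.0123), Fcrl1 (0.048) and Zc3h7b (0.0448) passed. Slc37a2 (0.136) and Mgat5 (0.0566) did not.

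The targeted genes were read first as a check of the labels. Sgk1 (chromosome 10, 21758083 to 21875802, GRCm39) was at 0.515, 0.455 and 0.848 CPM in the double knockout, 0.246, 0.148 and 1.58 CPM in the SGK1 knockout, and 2.99, 2.31 and 1.04 CPM in control cells. The knockout groups overlapped, and the difference of -0.14 ± 0.67 did not pass (adjusted p = 0.948). The level in library F lay above control library C. Against control at rest, Sgk1 differed by -1.665 in the SGK1 knockout and -1.802 in the double knockout. Neither passed by the edgeR test (adjusted p = 0.116 and 0.233). With DMXAA, Sgk1 was at 24.7 to 38.1 CPM in control cells. It was at 1.79 to 6.67 CPM in the SGK1 knockout and 1.71 to 3.03 CPM in the double knockout there. Sgk3 (chromosome 1, 9868332 to 9971070) was at 120, 135 and 121 CPM in the double knockout, 115, 114 and 132 CPM in the SGK1 knockout and 114, 123 and 125 CPM in control cells. The 3 groups overlapped (difference 0.06 ± 0.10 between the knockouts, adjusted p = 0.799). Gene counts do not show the edited site, so Sgk3 RNA does not check the SGK3 label. Ndrg1 was at 20.9, 21.1 and 22.6 CPM in the double knockout, above 15.4, 14.3 and 15.9 CPM in the SGK1 knockout and 11.4 to 13.1 CPM in control cells. All double knockout libraries lay above all others, but the difference of 0.50 ± 0.16 missed the threshold (adjusted p = 0.0768). Sgk2 had too few counts to be tested.

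The named changes were the 12 largest rises among 144 candidates and the 12 largest falls among 198: protein-coding genes called in both fits, at 1 CPM or more in the higher group, whose groups did not overlap. Over all called genes, 600 of 609 had groups that did not overlap; among all tested genes the double knockout lay wholly above in 10.6% and the SGK1 knockout in 10.9%.

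Several of the falls were near-complete losses in the double knockout. Btg3, an antiproliferative member of the BTG/TOB family (chromosome 16, 78129525 to 78174080), was at 2.23, 2.00 and 1.54 CPM in the SGK1 knockout and had no count in G, H or I. A count of 0 allows up to 12 counts a library (3 read pairs at 4 counts each, a unit read from the most frequent low value and not stated in the labels), so Btg3 was at least 13.3-fold lower (adjusted p = 7.26e-08). Control cells had 4.98, 6.19 and 5.70 CPM. Crlf2, a chain of the receptor for the cytokine TSLP (chromosome 5, 109702575 to 109706859), was at 2.08, 1.75 and 0.813 CPM in the SGK1 knockout and at 0 in the double knockout, at least 10.7-fold lower (adjusted p = 0.000424). Control cells were far above both, at 21.3, 24.5 and 18.3 CPM. Sorl1, a sorting receptor of endosomes and Golgi, was at 3.48, 6.70 and 8.35 CPM against 0, 0 and 0.0928 CPM (adjusted p = 0.000754). Its control libraries were uneven, at 2.23, 0.162 and 1.91 CPM.

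Trp53i11 was the fall with the smallest p of any gene. It (chromosome 2, 93017893 to 93032104) was at 5.18, 5.70 and 5.02 CPM in the double knockout, 52.3, 54.5 and 51.8 CPM in the SGK1 knockout and 67.8, 67.6 and 64.3 CPM in control cells. The groups were far apart with little spread inside each, and the difference was -3.32 ± 0.13 (adjusted p = 2.24e-12).

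Ranbp3l and Abcd2 were high in the SGK1 knockout rather than in control cells. Abcd2, a peroxisomal transporter of very long-chain fatty acids (chromosome 15, 91030074 to 91076002), was at 1.57, 1.15 and 1.01 CPM in the double knockout and 13.9, 12.7 and 14.8 CPM in the SGK1 knockout, with 2.94 to 3.29 CPM in control cells. The difference was -3.47 ± 0.23 (adjusted p = 1.82e-08), and the double knockout lay below both other groups. Ranbp3l, a Ran-binding protein, was at 1.02, 0.379 and 1.67 CPM against 20.7, 24.9 and 24.9 CPM, with 3.81 to 4.69 CPM in control cells (-4.52 ± 0.37, adjusted p = 3.38e-07). Tfec, a transcription factor of the MiT/TFE family, was at 0.505 to 0.795 CPM against 8.55, 5.95 and 7.89 CPM, while control libraries held 0.463, 0 and 0 CPM (-3.51 ± 0.89, adjusted p = 0.0362).

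Falls of surface proteins came next. Itgal, the alpha chain of the leukocyte integrin LFA-1, was at 2.18, 0.316 and 1.27 CPM against 15.6, 14.2 and 17.4 CPM, with 7.61 to 8.67 CPM in control cells (-3.63 ± 0.48, adjusted p = 0.00019). Slc7a8, an exchanger of neutral amino acids, was at 0.34, 0.304 and 0.292 CPM against 2.64, 4.16 and 4.82 CPM (-3.63 ± 0.43, adjusted p = 3.88e-05), and control cells held 12.7 to 16.8 CPM. Cd28, best known as a costimulatory receptor of T cells, was at 0.0506 to 0.225 CPM against 1.59, 1.86 and 1.78 CPM (-3.63 ± 0.69, adjusted p = 0.00626). These low values rest on few read pairs. Gpr179, an orphan receptor of the G protein-coupled class, and Zfp979, a zinc finger gene whose reads may be shared with close relatives, fell by 3.78 and 3.24 on the log2 scale (adjusted p = 3.16e-05 and 3.54e-05).

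Among the rises, Slc9b2 was present in 1 genotype only of those sampled here at rest in b2. This sodium/proton exchanger (chromosome 3, 135013461 to 135051148) was at 5.49, 4.09 and 5.41 CPM in the double knockout and had no count in any SGK1 knockout or control library. It was at least 33.1-fold higher than in the SGK1 knockout (adjusted p = 0.00194). Without the steep libraries it did not pass (adjusted p = 0.163), although D, the SGK1 knockout library left, still had no count. Arhgap31, a GTPase-activating protein for Rac1 and Cdc42, was at 5.82, 5.36 and 6.61 CPM against 0.191, 0.333 and 0 CPM (5.08 ± 0.72, adjusted p = 0.000354). Its control level of 0.688 to 1.37 CPM lay between the groups. Pax3, a transcription factor known from neural crest and muscle precursors, was at 5.11, 6.70 and 6.82 CPM against 2.42, 2.03 and 1.94 CPM, with at most 0.256 CPM in control cells (1.54 ± 0.29, adjusted p = 0.00626).

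Rgs1 and Dusp4 rose from levels that lay below control. Rgs1, which shortens G protein signals, was at 4.94, 7.03 and 4.36 CPM against 0.424, 1.12 and 0.624 CPM, with 2.00 to 3.72 CPM in control cells (2.91 ± 0.33, adjusted p = 2.64e-05). Dusp4, a phosphatase of MAP kinases, was at 22.7, 32.4 and 21.8 CPM against 8.80, 11.1 and 11.4 CPM, with 39.8 to 53.5 CPM in control cells (1.29 ± 0.15, adjusted p = 2.83e-05). In both genes the groups did not overlap, and the double knockout was nearer to the control level for Dusp4 without reaching it. Prnp, the prion protein, was likewise lowest in the SGK1 knockout, at 0.448 to 0.683 CPM, against 2.00 to 2.26 CPM in the double knockout and 3.55 to 6.11 CPM in control cells (1.96 ± 0.41, adjusted p = 0.0126).

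Cd48, a surface protein of the SLAM family, was at 9.36, 7.26 and 8.56 CPM against 2.94, 1.95 and 1.68 CPM (1.94 ± 0.40, adjusted p = 0.0109). Gpnmb, a glycoprotein of lysosomes and melanosomes, was at 7.80, 8.35 and 7.82 CPM against 2.83, 3.01 and 3.97 CPM (1.29 ± 0.29, adjusted p = 0.0179). For both, control cells lay near the SGK1 knockout, at 1.02 to 1.68 and 1.89 to 2.96 CPM. The remaining rises were Pirb, an inhibitory receptor for MHC class I, at 2.03 log2 units, Alyref2, a paralog of an mRNA export adaptor, at 1.90, the scaffold gene Cnksr1 at 1.66 and Serpinb1c, a protease inhibitor gene with close paralogs, at 4.29, with adjusted p between 0.0356 and 0.0452. All 4 stood below 5 CPM in every library of both genotypes. The Serpinb1c value rests on SGK1 knockout levels of 0.232, 0 and 0 CPM, and the call was lost when any library but D was left out. Without D no SGK1 knockout library had a count of it, so no fold is given for that fit.

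**Figure D2:**
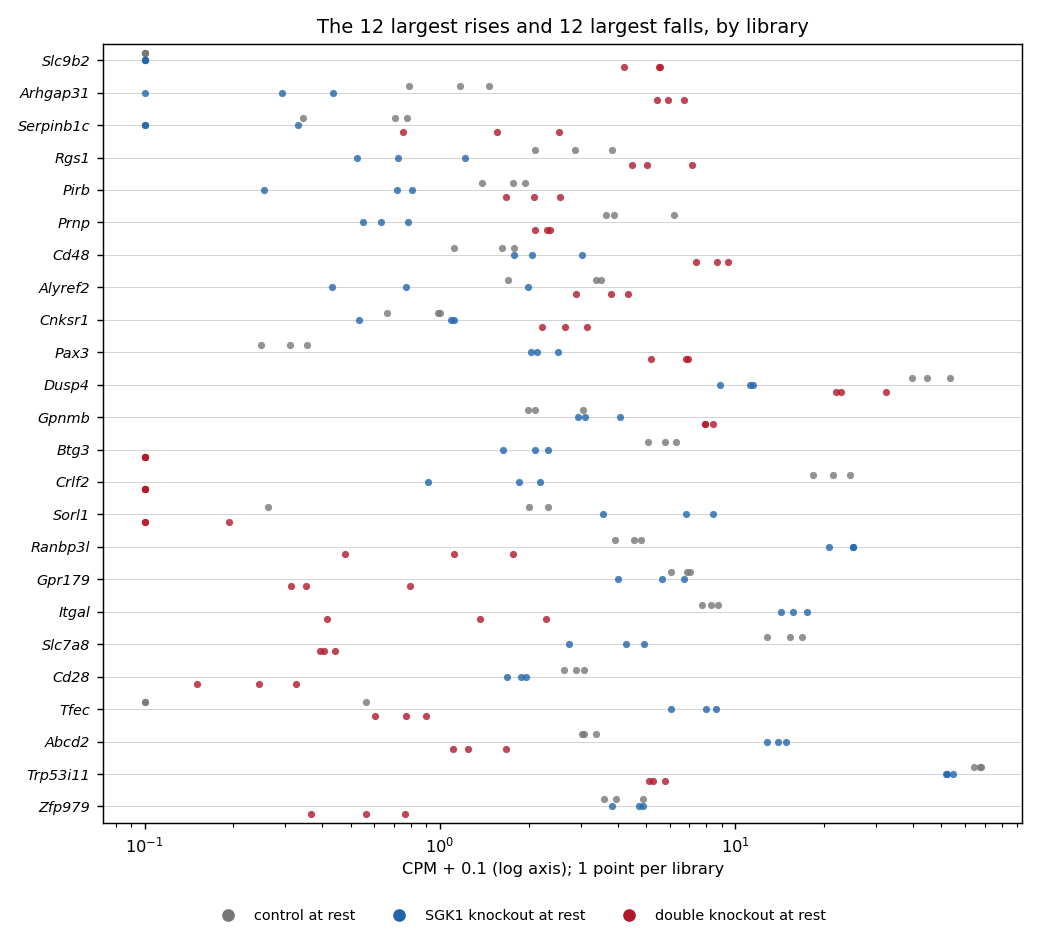
CPM plus 0.1 on a log axis (x) for the 12 largest rises (top) and 12 largest falls (bottom), 1 gene per row and 1 point per untreated library of control, SGK1 knockout and double knockout cells. Points at 0.1 are libraries with no count, such as all SGK1 knockout and control libraries for Slc9b2 and all double knockout libraries for Btg3 and Crlf2.

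With the steep libraries E and F, and P and X of the DMXAA groups, left out, 11 of the 12 falls passed (all but Tfec) and 3 of the 12 rises (Arhgap31, Rgs1 and Dusp4). Several lost calls kept a fold of about the same size in that fit: Tfec was at -3.70 against -3.51, Gpnmb at 1.5 against 1.29, Pax3 at 1.36 against 1.54 and Prnp at 1.66 against 1.96. Others were smaller, such as Serpinb1c at 2.69 against 4.29 and Alyref2 at 0.93 against 1.90. Over all 609 genes, 68 passed in the same direction in that fit, which holds 1 SGK1 knockout library at rest (D) and assumes that it varies like the other groups. In the 17 other fits that were run, 44 genes were called the same way in each, 6 of them higher and 38 lower. Those 44 include Rgs1 and Dusp4 among the named rises and 9 of the named falls (all but Sorl1, Cd28 and Tfec).

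The interferon program was lower in the double knockout. Of 19 genes in the list of early interferon and IRF3 targets, 17 were tested, 5 fell and 0 rose, with a median difference of -0.90. Of 50 interferon-stimulated genes, 22 fell and 0 rose, with a median of -0.76. Of all tested genes 2.26% fell and 1.41% rose, and their median was 0.014. With the length trend removed, 6 and 24 members fell, with medians of -0.81 and -0.78 against -0.0062 over all genes. Without the steep libraries 3 and 10 members passed, with medians of -0.56 and -0.61. Without SGK1 knockout library F 3 and 13 passed, and without E 3 and 16. Leaving out a double knockout library gave 3 and 13 without G, 3 and 21 without H, and 5 and 14 without I. Leaving out D gave 5 and 25 falls and 0 and 1 rises. Both lists were written with earlier results of these libraries known.

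Sensors of viral RNA were among the genes that fell. Ddx58, which encodes the sensor RIG-I, was at 6.43, 8.07 and 6.18 CPM in the double knockout and 18.1, 21.3 and 22.6 CPM in the SGK1 knockout, with 61.6, 56.2 and 69.9 CPM in control cells. Its groups did not overlap, and the levels stepped down from control to SGK1 knockout to double knockout (-1.59 ± 0.14 between the knockouts, adjusted p = 8.82e-07). Ifih1, which encodes the related sensor MDA5, was at 4.05, 4.49 and 5.18 CPM against 6.72, 11.6 and 11.4 CPM (-1.12 ± 0.20, adjusted p = 0.00274), with 22.7 to 35.8 CPM in control cells. Without the steep libraries Ifih1 did not pass (-0.56, adjusted p = 0.625).

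Antiviral enzymes showed the same order of groups. Oas3, a synthase of the 2′-5′ oligoadenylates that activate RNase L, was at 19.5, 19 and 18.4 CPM in the double knockout, 42.8, 53.2 and 46.8 CPM in the SGK1 knockout and 164, 143 and 162 CPM in control cells. The 3 groups lay apart, and the knockouts differed by -1.33 ± 0.11 (adjusted p = 5.97e-07). Reads of Oas genes may be shared between paralogs. Cmpk2, a nucleotide kinase that neighbours the viperin gene, was at 0.206, 0.569 and 0.371 CPM against 2.21, 2.02 and 2.95 CPM, with 22.4 to 23.5 CPM in control cells (-2.67 ± 0.42, adjusted p = 0.00162). Parp14, an ADP-ribosyltransferase, was at 16.1, 17.5 and 16.6 CPM against 32.5, 44.0 and 51.0 CPM (-1.34 ± 0.15, adjusted p = 2.83e-05).

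Further members of the lists were lower too. Irf7, the transcription factor that amplifies type I interferon, was at 4.49, 3.82 and 3.82 CPM in the double knockout, 14.4, 9.97 and 17.6 CPM in the SGK1 knockout and 81.0, 81.1 and 84.2 CPM in control cells (-1.79 ± 0.21 between the knockouts, adjusted p = 3.88e-05). Trim30a, a TRIM protein of mouse, was at 4.20, 4.95 and 4.51 CPM against 11.2, 10.5 and 11.6 CPM (-1.29 ± 0.31, adjusted p = 0.0288). Ifi44, an interferon-induced gene of the cytoplasm, was at 7.05, 8.11 and 10.4 CPM against 24.8, 26.8 and 31.7 CPM, with 218 to 226 CPM in control cells (-1.71 ± 0.19, adjusted p = 1.49e-05). For each of these genes every double knockout library lay below every SGK1 knockout library.

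Over the 27 interferon members that fell, all control libraries lay above all SGK1 knockout libraries in 26. The SGK1 and double knockouts have the control libraries in common in such a reading. The share of all tested genes with control wholly above the SGK1 knockout was not counted. Against control, the median of the 50 interferon-stimulated genes was -1.40 in the SGK1 knockout and -2.31 in the double knockout.

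**Figure D3:**
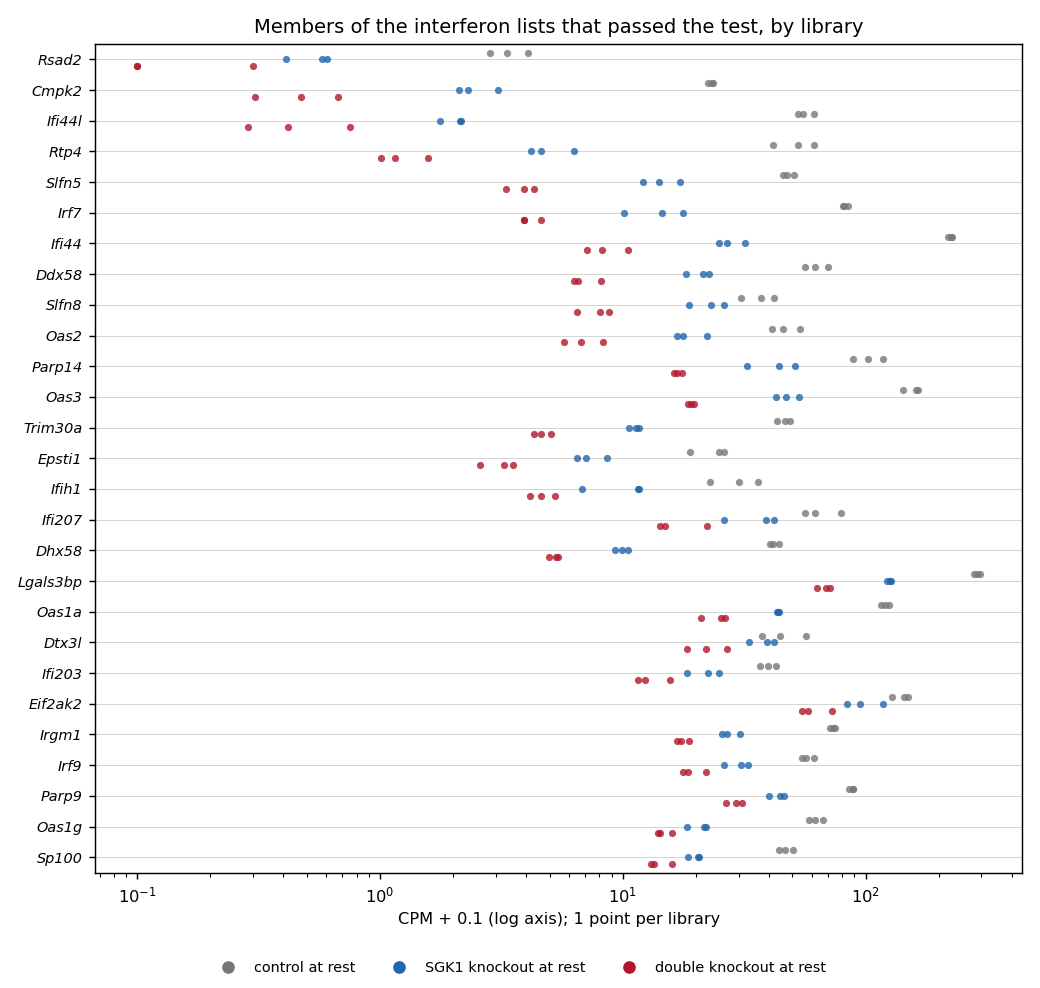
CPM plus 0.1 on a log axis (x) for the 27 members of the interferon lists that passed the test, 1 gene per row and 1 point per untreated library. For Oas3 the control libraries lie at 143 to 164 CPM, the SGK1 knockout at 42.8 to 53.2 and the double knockout at 18.4 to 19.5, and the same order of knockouts holds in every row.

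The stretches before the start of the interferon genes were read for the letters that interferon-activated factors are known to bind. The motif searched was GAAANNGAAA, with N for any base, on either strand (TTTCNNTTTC on the other), in the 250 bases before each gene's start in RefSeq (GRCm38.p6). Of the 27 members that fell, 22 matched a window by symbol, and 10 of these held the motif (45.5%). It was held by 15 of 30 matched members of the lists that did not pass (50.0%), by 3.39% of matched tested genes and by 2.98% of all windows. The share was thus high in the interferon lists and close between members that fell and members that did not pass. Windows of 4 members that fell are shown 5′ to 3′ in the gene's direction, with the motif in capitals. Oas3 and Trim30a are among the genes named above, and Oas1a and Slfn8 were chosen after their values were seen. They lie at chr5:120777660-120777909 (Oas3, minus strand), chr7:104465194-104465443 (Trim30a, minus strand), chr5:120907526-120907775 (Oas1a, minus strand) and chr11:83020811-83021060 (Slfn8, minus strand).
Oas3: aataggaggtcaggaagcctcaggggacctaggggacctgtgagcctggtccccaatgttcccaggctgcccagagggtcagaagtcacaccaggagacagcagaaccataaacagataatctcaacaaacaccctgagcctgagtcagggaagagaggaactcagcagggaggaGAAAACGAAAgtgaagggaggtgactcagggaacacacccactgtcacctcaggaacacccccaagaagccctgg
Trim30a: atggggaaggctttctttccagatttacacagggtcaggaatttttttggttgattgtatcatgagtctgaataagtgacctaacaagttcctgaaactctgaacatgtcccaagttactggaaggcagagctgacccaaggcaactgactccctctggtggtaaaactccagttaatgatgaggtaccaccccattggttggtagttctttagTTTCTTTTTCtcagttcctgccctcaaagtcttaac
Oas1a: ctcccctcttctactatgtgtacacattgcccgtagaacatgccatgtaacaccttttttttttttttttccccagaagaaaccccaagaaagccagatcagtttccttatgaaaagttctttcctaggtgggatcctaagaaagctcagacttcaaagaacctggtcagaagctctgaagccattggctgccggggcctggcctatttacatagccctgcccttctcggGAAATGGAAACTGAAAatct
Slfn8: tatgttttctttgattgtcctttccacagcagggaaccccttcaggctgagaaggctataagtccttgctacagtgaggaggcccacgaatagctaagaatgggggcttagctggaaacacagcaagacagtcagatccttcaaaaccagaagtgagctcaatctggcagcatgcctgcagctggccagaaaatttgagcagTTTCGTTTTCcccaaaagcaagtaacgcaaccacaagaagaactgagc
In Oas1a the capitals join 2 overlapping copies, and in Trim30a and Slfn8 the motif is read from the other strand. Oas1a itself was at 25.3, 20.9 and 26.3 CPM in the double knockout against 44.0, 43.7 and 42.9 CPM in the SGK1 knockout (-0.85 ± 0.13, adjusted p = 0.000567). Slfn8, a Schlafen gene, was at 6.38, 7.98 and 8.67 CPM against 18.7, 22.9 and 26 CPM (-1.56 ± 0.23, adjusted p = 0.000531). Neither pair of groups overlapped.

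Of the components of the STING pathway, 26 of 27 were tested, 3 fell and 0 rose (median -0.17), against 2.26% and 1.41% of all tested genes. Sting1, the sensor itself, was at 13.4, 12.2 and 14.2 CPM against 22.5, 19.1 and 18 CPM, and the groups did not overlap (-0.58 ± 0.14, adjusted p = 0.0234). It passed with the length trend removed (-0.69, adjusted p = 0.00198), but not without the steep libraries (-0.76, adjusted p = 0.112) or with the 6 libraries alone (adjusted p = 0.132). By edgeR, 0 members of the list passed when G, H, I or E was left out, 1 without F and 5 without D, and DESeq2 called 6. At an unadjusted p under 0.05, 11 members were lower with all libraries. Lrrc8c, a volume-regulated channel subunit, and Npc1, the lysosomal cholesterol exporter, fell by 0.63 and 0.42 on the log2 scale (adjusted p = 0.0336 and 0.0448) and did not pass with the trend removed (0.171 and 0.131).

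Immediate early genes lay the other way. Of 28 tested, 4 rose and 0 fell (median 0.36), against 1.41% and 2.26% of all tested genes. With the length trend removed 7 rose (median 0.38), against 1.86%. Besides Dusp4, Jund, an AP-1 subunit, was at 82.5, 76.7 and 78.2 CPM against 56.9, 48.8 and 45.1 CPM (0.65 ± 0.11, adjusted p = 0.00219). Atf3, a stress-induced repressor, was at 6.82, 7.45 and 7.73 CPM against 4.41, 4.85 and 4.88 CPM (0.64 ± 0.15, adjusted p = 0.0246). Ier5 rose by 0.67 ± 0.18 (adjusted p = 0.0444). With length and GC trends removed together, Jund did not pass (adjusted p = 0.276), and Jund, Atf3 and Ier5 did not pass without the steep libraries (0.262, 0.214 and 0.705). Control cells lay near the double knockout for these 3 genes, at 62.0 to 76.9 CPM for Jund and 7.22 to 9.16 CPM for Atf3. No control or double knockout library had a length slope as steep as that of E or F. How far the slope bears on these levels was not tested. Without the steep libraries the median of the 28 was 0.29. Without any one of G, I, E or F alone 2 passed, and without H or D alone 4 did.

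Inflammatory genes were mixed. Of 32 genes on the NF-kB list 22 were tested, 2 rose and 1 fell (median 0.19), against 1.41% and 2.26% of all tested genes. Relb, an NF-kB subunit, was at 15.7, 15.8 and 16.4 CPM against 11.2, 9.25 and 11.1 CPM (0.60 ± 0.11, adjusted p = 0.00626). Ccl9, a chemokine of macrophages, was at 169, 150 and 182 CPM against 116, 108 and 96.7 CPM (0.64 ± 0.12, adjusted p = 0.00636). For both, the double knockout was close to control cells (15.7 to 16.7 and 155 to 186 CPM). Double knockout and control libraries also lacked length slopes as steep as those of E and F. Ptgs2, the inducible cyclooxygenase, fell, from 5.18, 7.30 and 11 CPM to 3.79, 2.99 and 2.45 CPM (-1.35 ± 0.33, adjusted p = 0.0292). With the 6 libraries alone 0 members of the list passed. Relb did not pass with length and GC trends removed together (adjusted p = 0.0986). Without E or F alone 1 member rose and 0 fell, and without G or I 2 rose and 0 fell. Without the steep libraries the differences were 0.51 for Relb, 0.53 for Ccl9 and -0.75 for Ptgs2. That fit holds D as the only SGK1 knockout library at rest, so the sizes alone are given and do not show that a call held.

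Several chaperones of the endoplasmic reticulum fell. Of 24 genes of the unfolded protein response, 5 fell and 0 rose (median -0.20), against 2.26% and 1.41% of all tested genes. With the length trend removed 8 fell (median -0.22), against 1.58%. Hspa5, the chaperone BiP, was at 1150, 1170 and 1110 CPM against 1450, 1570 and 1520 CPM, with 1670 to 1690 CPM in control cells (-0.40 ± 0.063, adjusted p = 0.00108). Hyou1, a cochaperone of BiP, was at 600, 683 and 551 CPM against 847, 1040 and 1100 CPM (-0.70 ± 0.13, adjusted p = 0.00392). Dnajc3 and Pdia4, which act in the same compartment, fell by 0.49 and 0.48 (adjusted p = 0.00479 and 0.0222). Without library E, F or G alone 3 of the 24 passed, without I 2, without H 5 and without D 8. Without the steep libraries edgeR called 0 of the 24, and Hspa5 stood at -0.34 (adjusted p = 0.0923).

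Of 36 macrophage identity genes 31 were tested, 7 fell and 0 rose (median -0.20), against 2.26% and 1.41% of all tested genes. The difference was positive in 13 of the 31 and negative in 18. With all 46 libraries in the fit 5 rose and 6 fell, where 1932 and 1641 of 18315 genes did. Adgre1, which encodes F4/80, was at 5.70, 7.36 and 4.84 CPM against 9.88, 14 and 12.7 CPM, with 15.8 to 17.3 CPM in control cells (-1.03 ± 0.17, adjusted p = 0.00148). Cx3cr1, the fractalkine receptor, was at 491, 523 and 474 CPM against 715, 846 and 856 CPM (-0.70 ± 0.11, adjusted p = 0.00148). Fcgr1, the high-affinity Fc gamma receptor, was at 31.7, 24.4 and 30.0 CPM against 53, 45.5 and 43.6 CPM (-0.72 ± 0.15, adjusted p = 0.0102). Itgam, the integrin chain CD11b, fell by 0.45 ± 0.10 (adjusted p = 0.0203), and not with the length trend removed (adjusted p = 0.0794). Without library E, G or I alone 3 of the 31 fell, without F 4 and without H 5. Without D 7 fell and 2 rose. Without the steep libraries the median of the list was -0.054. In that fit, where D is the only SGK1 knockout library at rest, Adgre1 stood at -0.73, Cx3cr1 at -0.52, Fcgr1 at -0.88 and Itgam at -0.31. Among 13 tested genes of alternative activation 2 fell, against 2.26% of all tested genes. Msr1, a scavenger receptor, was at 234, 230 and 212 CPM against 302, 346 and 367 CPM (-0.58 ± 0.082, adjusted p = 0.000354). Il4ra, a chain of the interleukin-4 receptor, fell by 1.21 ± 0.25 (adjusted p = 0.012). With the 6 libraries alone 0 members of this list passed. Without the steep libraries, again with D alone, the differences were -0.42 for Msr1 and -1.14 for Il4ra, which does not show that a call held. With DMXAA Msr1 passed (-0.62, adjusted p = 7.99e-05) and Il4ra did not (-0.50, adjusted p = 0.389).

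Of 17 tested osteoclast genes 1 rose and 1 fell, against 1.41% and 2.26% of all tested genes. Car2, a carbonic anhydrase, was at 175, 149 and 149 CPM against 324, 295 and 276 CPM (-0.92 ± 0.095, adjusted p = 9.09e-06) and was called in all 17 other fits. Dcstamp, a protein of cell fusion, was at 23.8, 18.9 and 22.2 CPM against 12.6, 12.3 and 14.3 CPM (0.73 ± 0.15, adjusted p = 0.0122), and did not pass with the length trend removed (adjusted p = 0.11). Acp5 and Atp6v0d2, an acid phosphatase and a proton pump subunit of osteoclasts, stood higher in every double knockout library without passing (1.98 ± 0.60 and 2.50 ± 0.80, adjusted p = 0.0683 and 0.0842).

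Of 33 tested genes of the SGK, AKT and PI3-kinase pathway 1 fell, beside 2.26% of all tested genes. It was Inpp5d, which encodes the phosphatase SHIP1, from 229, 253 and 252 CPM to 183, 197 and 177 CPM (-0.40 ± 0.093, adjusted p = 0.0225). With the length trend removed Inpp5d stood at -0.25 (adjusted p = 0.0492). It did not pass with length and GC trends removed together (adjusted p = 0.0836) or with the 6 libraries alone (adjusted p = 0.106). At an unadjusted p under 0.05, 9 members were lower and 3 higher, and DESeq2 called 3 lower and 2 higher. Of 23 tested FOXO factors and targets, 2 rose, against 1.41% of all tested genes. Cdkn1b, the cell cycle inhibitor p27, was at 38.6, 44.1 and 40.8 CPM against 30.6, 31.7 and 29.0 CPM (0.44 ± 0.089, adjusted p = 0.01). Gabarapl1, an autophagy protein, was at 61.9, 53.1 and 69.0 CPM against 42.1, 32.2 and 35.0 CPM (0.75 ± 0.16, adjusted p = 0.0141). Both also passed with the length trend removed, and neither without the steep libraries, where the difference of Cdkn1b was 0.43 (adjusted p = 0.288) and that of Gabarapl1 0.55 (adjusted p = 0.466).

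The other lists had few calls, where 1.41% of all tested genes rose and 2.26% fell. In glycolysis and hypoxia, 1 of 31 rose, the mitophagy receptor Bnip3l (0.43 ± 0.086, adjusted p = 0.00917), and 2 fell, the hexokinases Hk2 and Hk1 (-0.59 and -0.33, adjusted p = 0.0182 and 0.0336). Hk1 did not pass with the length trend removed (-0.20, adjusted p = 0.158). In the lysosomal list, 2 of 39 rose (Gla, the alpha-galactosidase, and Gpnmb) and 2 fell (Gaa, the acid alpha-glucosidase, and Npc1). In the cell cycle list, 2 of 42 rose (Cdc25b and Ccnb2) and 2 fell (Cdc6 and Cdc25a), and with the length trend removed 4 rose and 0 fell. In antigen presentation 1 of 24 fell, Tapbp, the peptide-loading protein tapasin (-0.34 ± 0.083, adjusted p = 0.0295), and in the ATF4 list 1 of 28 fell, the amino acid transporter Slc7a5 (-0.36 ± 0.094, adjusted p = 0.0375), which did not pass with the length trend removed (-0.29, adjusted p = 0.0879). By edgeR in the first fit, 0 of 24 sterol genes, 0 of 27 p53 targets and 0 of 21 NRF2 targets passed. At an unadjusted p under 0.05 there were 7, 6 and 4, and DESeq2 called 2, 2 and 3. With all 46 libraries edgeR called 4 sterol genes lower, 3 p53 targets higher and 1 lower, and 3 NRF2 targets higher and 1 lower.

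Lists of very short or very long transcripts stood at opposite ends. Of 79 cytosolic ribosomal protein genes (median transcript 807 bases), all had a positive difference, with a median of 0.60. By edgeR 0 passed in the first fit, 56 had an unadjusted p under 0.05 and DESeq2 called 18. The median level of the list relative to the mean of the 6 libraries was 0.50, -0.032 and 0.50 on the log2 scale in G, H and I, and 0.18, -0.33 and -0.77 in D, E and F. H thus lay below D, as libraries with steeper length slopes had lower medians. For 72 nuclear-encoded genes of the respiratory chain the median was 0.65, with 0 calls by edgeR in the first fit, 42 at an unadjusted p under 0.05 and 10 by DESeq2. With all 46 libraries edgeR called 70 ribosomal protein genes and 53 respiratory chain genes higher. Without library D it called 53 and 31, and without G, I, E or F 0 in either list. For 34 giant proteins (median transcript 13096 bases) it was -0.67, all 34 differences were negative, and 3 passed (Nbeal2, Utrn and Lrba), with 26 at an unadjusted p under 0.05 and 15 called by DESeq2. Leaving out library D gave 24 calls in the giant list, leaving out G, I, E or F gave 1, and the 46-library fit gave 26. With the trend removed these medians were 0.28, 0.32 and -0.23, and without the steep libraries 0.18, 0.21 and -0.10. Ribosomal protein genes took 5.71%, 4.21% and 5.73% of counts in the double knockout and 4.61%, 3.35% and 2.65% in the SGK1 knockout.

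**Figure D4:**
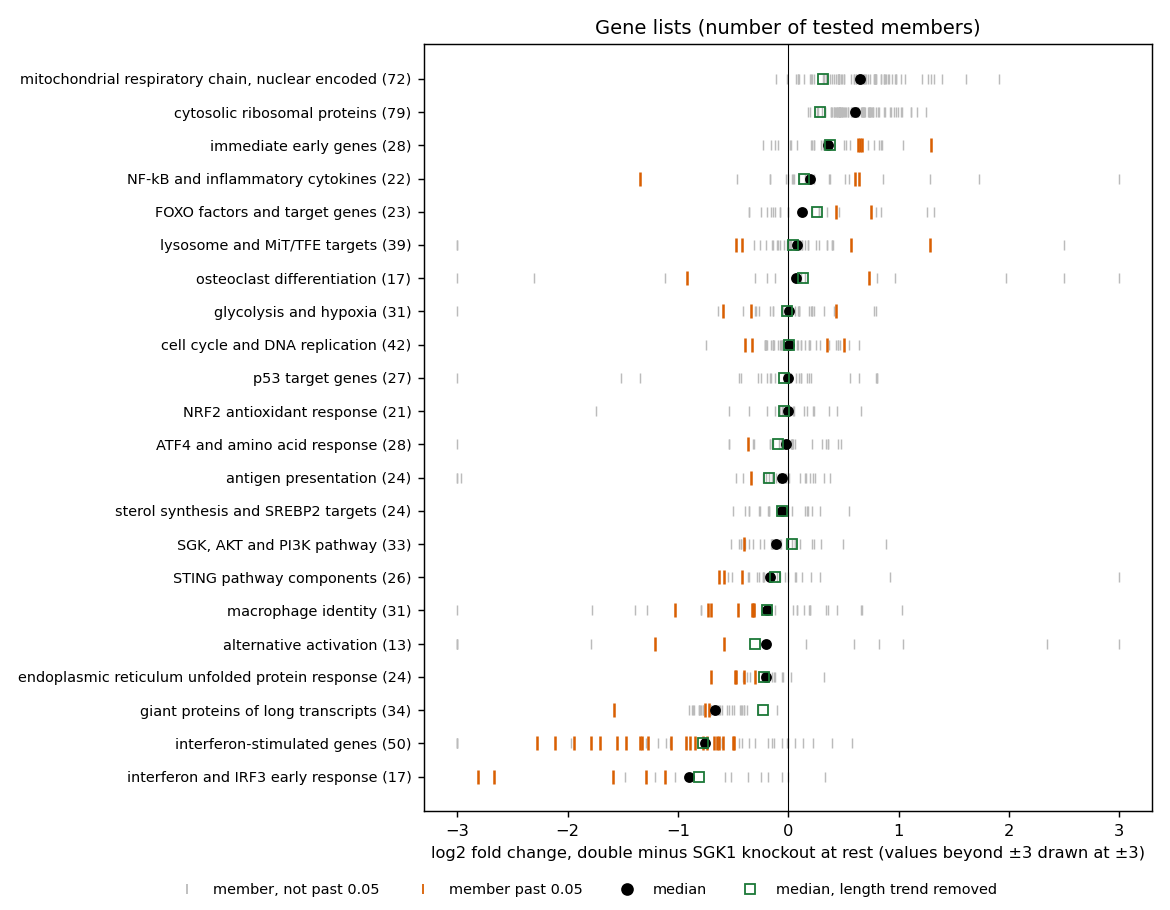
Log2 fold change of double minus SGK1 knockout at rest (x) for each tested member of 22 gene lists (y, with the number tested), as ticks, with members past an adjusted p of 0.05 in orange. Black points are list medians and open squares the medians with the length trend removed, which stay at -0.81 and -0.78 for the interferon lists and move from 0.60 to 0.28 for ribosomal proteins and from -0.67 to -0.23 for giant proteins.

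The same genotypes after DMXAA give libraries that the resting comparison does not use, although both contrasts share 1 estimate of spread. There, 327 genes differed (1.97% of those tested), 135 higher (0.812%) and 192 lower (1.16%) in the double knockout. Without double knockout library T the count was 187, and without U 173. The steep libraries P (SGK1 knockout, slope 0.126) and X (double knockout, 0.131) lay in opposite groups. Of the 212 genes lower at rest in both fits, 204 had the same sign with DMXAA and 87 were called lower, 0 higher. Of the 153 that were higher, 135 had the same sign, 38 were called higher and 1 lower. Over all tested genes 59.2% had the same sign. Of the 24 largest changes, 10 falls and 5 rises passed with DMXAA in the same direction.

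Single genes kept their size to different degrees. Btg3 and Crlf2 were called lower with DMXAA too (adjusted p = 4.65e-08 and 0.00033), as were Abcd2 (-2.67 ± 0.22, adjusted p = 3.1e-07) and Ranbp3l (-4.12 ± 0.36, adjusted p = 6.21e-07). Slc9b2 and Arhgap31 were called higher (adjusted p = 0.00077 and 0.000577), and Gpnmb stood at 2.24 ± 0.26 (adjusted p = 4e-05). Prnp (0.05 ± 0.37, adjusted p = 0.992) and Cnksr1 (0.07 ± 0.39, adjusted p = 0.987) showed no difference past the threshold there. The change of these differences from rest did not pass either (adjusted p = 0.351 for Prnp and 0.448 for Cnksr1). All 27 interferon members that fell at rest had a negative difference with DMXAA and 15 passed. The median of the 50 interferon-stimulated genes was -0.46 with DMXAA.

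A test of the difference itself, DMXAA against rest, called 2 of 16622 genes (0.012%), Trp53i11 upward and Nfkbiz downward (0.00602% each), while 1556 had an unadjusted p under 0.05. The count was 72 by DESeq2, and 0 by edgeR with the steep libraries left out, where 781 had an unadjusted p under 0.05.

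**Figure D5:**
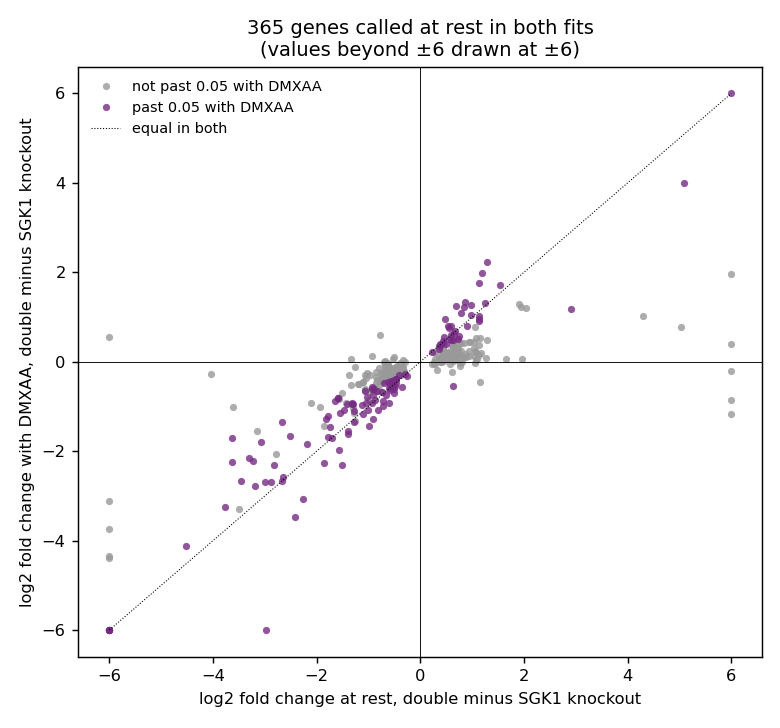
Log2 fold change of double minus SGK1 knockout at rest (x) and with DMXAA (y) for the 365 genes called at rest in both fits, 1 point per gene, coloured by whether it passed with DMXAA. Of the 212 falls 204 lie below 0 with DMXAA and of the 153 rises 135 lie above.

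Knockout of SGK3 on an otherwise unedited background was sampled in b1, with no library in common with the resting b2 groups. There, 1768 of 16947 genes differed from control (10.4%), 989 higher (5.84%) and 779 lower (4.6%). Of the 212 genes lower in the double knockout in both fits, 145 were negative in the SGK3 knockout, 86 were called lower and 18 higher. Of the 153 that were higher, 105 were positive, 51 were called higher and 5 lower. Over all genes tested in both, 47.3% had the same sign. Genes called at rest only before the length trend was removed had the same sign in 42.0% (rises) and 41.7% (falls).

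All 27 interferon members that fell were also called lower in the SGK3 knockout, where 47 of 50 interferon-stimulated genes fell with a median of -2.05. For Oas3 the SGK3 knockout differed from control by -2.36 and for Irf7 by -4.33 (adjusted p = 1.78e-07 and 1.72e-09). Of the largest changes, Pax3 (5.39), Gpnmb (4.26) and Cd48 (3.38) were called higher in the SGK3 knockout, among 6 of the 12 rises. Btg3 (-3.68), Cd28 (-4.93) and Slc7a8 (-2.78) were called lower, among 7 of the 12 falls. Others went the opposite way or did not pass: Abcd2 was higher in the SGK3 knockout (2.72, adjusted p = 9.72e-09), Arhgap31 was lower (-2.67, adjusted p = 0.0339), and Slc9b2, Crlf2 and Itgal did not pass (adjusted p = 0.781, 0.22 and 0.519). Whether the SGK3 effect differs between the backgrounds was not tested, since batch and background change together.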

How the data were processed

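RNA was poly-A selected, per the labels' protocols. STAR 2.7.9a, StringTie 2.2.0 and the build GRCm39 are named in the submitters' processing notes; the deposited tables name GENCODE M27. The deposited expected counts, estimated counts per gene for 55416 genes and already whole numbers, were tested. TPM values deposited by the authors served 1 alternative and, with the counts, the transcript lengths (98.9% of 1426 genes with 1 transcript lay within 10% of the length in GENCODE M21). How reads were counted, and whether by strand, is not given in the sources used here.

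Genes passing filterByExpr were tested in edgeR 4.0.16 under R 4.3.3 with TMM scaling, 1 coefficient per group and the robust quasi-likelihood F test, over the 20 libraries of b2. Numbered libraries were kept out because earlier results showed b2 to vary more. Adjustment was Benjamini-Hochberg over all tested genes, with a threshold of 0.05. SGK3 knockout against control was fitted over the 26 libraries of b1 alone. The length trend was removed by a natural spline with 4 degrees of freedom per library. GC content came from GENCODE M21 transcripts by gene ID, for 99.4% of tested genes. DESeq2 1.42.0 and limma 3.58.1 served alternatives, limma on log2(TPM + 0.1). Levels are CPM and fold changes log2 ± SE.

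Named genes were the 12 largest rises and falls described with them, Sgk1, Sgk2, Sgk3 and Ndrg1, up to 4 members of smallest p from each list, and the 3 rises and 3 falls of smallest p lost with the trend removed. The members and the 22 lists were chosen with earlier results of these data known. Floors of 12 counts came to 0.124 to 0.164 CPM per library and cover counting error only. On simulated data of 16622 genes the resting test recovered 21% of genes changed by 0.5 (log2) and 76% of those changed by 1, with 6 false calls. For DMXAA the shares were 21% and 77%, and for the difference between states 5% and 54%. Over 16947 genes the SGK3 knockout test recovered 69% and 83%. The simulated libraries carried no length trend, and the genes changed had a mean of at least 1 CPM. The false calls counted thus do not include any that a length trend could bring. Batch b3, with 1 library whose title and treatment differ, was not used.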

Additional observations from a re-analysis of the deposited data

Results flagged for a closer look

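For 2 genes the difference between double and SGK1 knockout itself differed between DMXAA and rest, by edgeR's quasi-likelihood test of that difference with Benjamini-Hochberg adjustment over 16622 genes. Trp53i11 was at 9.68, 14.1 and 14.4 CPM in double knockout and 51.7 to 62.6 CPM in SGK1 knockout libraries with DMXAA, against 5.02 to 5.70 and 51.8 to 54.5 CPM at rest. Its deficit was thus smaller with DMXAA, by 1.17 ± 0.16 on the log2 scale (adjusted p = 0.00844). Control cells held 59.7 to 64.7 CPM with DMXAA.

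Nfkbiz, which encodes the NF-kB regulator IkB-zeta, was at 5.59, 8.97 and 6.07 CPM in the double knockout and 4.93, 4.52 and 4.65 CPM in the SGK1 knockout at rest. With DMXAA it was at 29.6, 34.1 and 29.5 CPM against 57.9 to 68.6 CPM, with 40.5 to 65.5 CPM in control cells. The difference at rest did not pass (0.55, adjusted p = 0.0827), that with DMXAA did (-1.05, adjusted p = 0.000827), and the difference between states was -1.60 ± 0.24 (adjusted p = 0.0136). Without the steep libraries neither gene passed (1.05 and -1.49, adjusted p = 0.277 and 0.457), nor with the compared groups alone (1.18 and -1.59, adjusted p = 0.155 and 0.0651), nor by limma on TPM (0.134 and 0.244). By DESeq2 both passed (2.56e-08 and 2.55e-06). Groups of 3 libraries were not tested for outlying libraries.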

How the results depend on the processing

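The count of 609 genes at rest was 3573 with all 46 libraries of b1 and b2 in the fit, 69 with the compared groups alone, 75 without the libraries of steep length trend (E, F, P, X), 1606 by DESeq2 and 302 by limma on TPM. It was 145 to 2129 when single libraries were left out. Without E, F, H, P, R and X, a choice made after seeing the data, it was 120. With DMXAA the count of 327 became 1215 (46 libraries), 57 (groups alone), 497 (length trend removed), 495 (length and GC removed), 651 (DESeq2) and 178 (limma), and 173 to 295 without single libraries. The count of 2 for the difference between states became 362, 0 (groups alone, 969 at an unadjusted p under 0.05), 9, 9, 0 (without the steep libraries, 781 unadjusted), 72 (DESeq2), 0 (limma, 1458 unadjusted) and 1 (without E, F, H, P, R and X). Of the 609 genes, 606 were called the same way with 46 libraries and 592 by DESeq2. The Sgk1 difference of -0.14 was 1.29 without the steep libraries, 0.35 by limma on TPM, 0.023 without H, 1.62 without F (single libraries gave -0.60 to 1.62) and 1.45 without E, F, H, P, R and X; that of Sgk3 (0.06) was -0.061 by limma. For 81 named genes, 991 of 1376 values under other fits kept direction and side of the threshold, 377 no longer passed, 2 newly passed and 6 changed sign. Of 374 list medians, 301 moved by less than the spread between libraries and 73 by more. The causes were not tested. In b1, same-numbered SGK3 knockout and control libraries did not deviate together (correlations 0.0135, 0.0133 and -0.0199), and a replicate block gave 1773 genes against 1768. The lettered groups share no letters, so no paired fit was made for them. In simulation, changes of 0.5 on the log2 scale were mostly missed in the lettered batch and mostly recovered in b1.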
